A study of Mus musculus with 1536 samples.

Results

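The 8 genes described here are a Wnt ligand, Wnt4, and 7 secreted proteins that modulate Wnt signals, namely the agonist Rspo3 and the Wnt-binding or receptor-binding proteins Sostdc1, Wif1, Dkk3, Sfrp1, Sfrp2 and Frzb. They were chosen by name among the 53263 genes measured in single serotonin neurons, with earlier results of the same cells known. Values from these cells therefore chose them, and all levels and contrasts below are descriptions. The cells came from C57BL/6J mice of 40 to 45 days in which Sert-tdTomato-Cre was crossed with Ai14, so that every cell of both groups carried the Cre driver and the tdTomato reporter. tdTomato-positive cells were sorted from dissociated brainstem and sequenced by Smart-seq2, which covers whole transcripts and counts reads without molecular identifiers. The "Principal DR" dissection gave 290 cells on 5 plates and the "All DR" dissection gave 709 cells on 11 plates. DR is the dorsal raphe, and the study's methods describe the broader dissection as also holding the median raphe, which its label does not name. A Cre driven by Sert marks any cell that ever expressed it, including cells with transient expression in development. The cells analysed carried serotonergic markers. Tph2, the rate-limiting enzyme of serotonin synthesis, and Fev, a transcription factor of serotonin neurons, were read in 100% of the 999 cells. Slc6a4, the serotonin transporter itself, was read in 99.8%. The study describes these cells as Tph2-positive, so the share with Tph2 may reflect which cells were kept.

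Wnt proteins are secreted, lipid-modified ligands that bind Frizzled receptors with the co-receptors Lrp5 and Lrp6, or with Ryk and the Ror kinases. Secreted modulators set how much of the ligand reaches its receptor. Rspo3 binds Lgr receptors and removes the ubiquitin ligases Znrf3 and Rnf43 from the membrane, which keeps Frizzled at the surface. Wif1, Sfrp1, Sfrp2 and Frzb bind Wnt ligands, Sostdc1 binds Lrp co-receptors and also bone morphogenetic proteins, and Dkk3 is a Dickkopf family member whose part in Wnt signalling is less settled. Wnt signals pattern the midbrain and hindbrain from which serotonin neurons arise, and in mature neurons several of these proteins act at synapses.

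The study's methods describe several animals per dissection, but the labels do not tie cells to them. Each dissection was therefore counted as 1 sample, no test was possible between groups, and no p-value is given. A cell with at least 1 read of a gene is called positive. Shares carry exact Clopper-Pearson 95% intervals, which cover counting error only. Levels are mean CPM (reads of a gene scaled to a fixed total of reads in each cell), and a difference is the log2 of (mean CPM + 1) over (mean CPM + 1), which understates the change of low genes. A gene was counted as higher or lower past 2-fold. The cells held between 96834 and 2780443 reads on genes, the median being 869546 in All DR and 755926 in Principal DR cells. Per plate, the mean level of Xist, the RNA that coats the inactive X chromosome of females, was 32.3 to 60.7 CPM on 9 plates, all of them All DR, and 0 to 0.719 CPM on the other 7. Those 7 were the All DR plates SER48 and SER55 and the 5 Principal DR plates, so Xist and dissection largely moved together. The immediate early gene Fos averaged 8.18 to 8.88 CPM on the Principal DR plates SER25, SER39 and SER40, and 76.7 to 220 CPM on all others. The part of these plate differences in the results was not tested beyond the values given beside each.

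Dkk3 was the most widely read member, in 74.5% of cells, followed by Wnt4 in 39.6%, Sostdc1 in 26.5%, Sfrp2 in 20.9%, Rspo3 in 20.5%, Sfrp1 in 15.2%, Frzb in 37 cells (3.70%) and Wif1 in 22. Per kilobase of exon, the mean level of Dkk3 (18.3 CPM per kb) and Sostdc1 (16.3 CPM per kb) exceeded those of all other ligands and modulators measured. Wnt4 (2.24 CPM per kb) and Rspo3, just above it, lay below the modulators Dkkl1 (9.17 CPM per kb) and Tpbg (6.01 CPM per kb) and below Wnt5a (3.46 CPM per kb), a ligand known for non-canonical signals. Sfrp1 (1.13 CPM per kb), Sfrp2 (0.744 CPM per kb), Frzb (0.424 CPM per kb) and Wif1 (0.297 CPM per kb) were lower still. Breadth and level were not the same order. Sostdc1 was read in fewer cells than Wnt4 but, in the cells that had it, at a median of 53.0 CPM against 16.5 CPM. Frzb and Wif1 were rare but not faint, with medians of 32.3 and 22.1 CPM in the 37 and 22 cells that had a read, while Sfrp2 had a median of 3 reads and 3.36 CPM.

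On GRCm38 with GENCODE annotation, Wnt4 (ENSMUSG00000036856.4) lies on chromosome 4 at 137277489 to 137299726, and Sostdc1 (ENSMUSG00000036169.6) on chromosome 12 at 36314139 to 36318452. Wif1 (ENSMUSG00000020218.11) and Rspo3 (ENSMUSG00000019880.10) are on chromosome 10, at 121033960 to 121100650 and at 29452416 to 29535867. Dkk3 (ENSMUSG00000030772.6) is on chromosome 7 at 112116017 to 112159057, and Sfrp1 (ENSMUSG00000031548.7) on chromosome 8 at 23411502 to 23449632. Sfrp2 (ENSMUSG00000027996.13) lies on chromosome 3 at 83766321 to 83774316 and Frzb (ENSMUSG00000027004.3) on chromosome 2 at 80411970 to 80447625. Wnt4, Sostdc1, Wif1, Dkk3, Sfrp1 and Frzb overlapped no other annotated gene. Sfrp2 overlaps Gm26771 on the opposite strand, which had reads in 329 cells, and 165 of the 209 Sfrp2-positive cells (78.9%) had reads of it. Smart-seq2 libraries do not mark strand and reads were counted without it, so reads of Sfrp2 and Gm26771 cannot be told apart where they overlap, and every Sfrp2 value below carries that limit.

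The RefSeq promoter table held 4 of the 8 members (Wnt4, Wif1, Sfrp2 and Frzb). The sequence before any exon is shown for Wnt4 and Wif1, the 2 of these 4 whose windows held CACCTG. Zeb2, a zinc-finger repressor, is known to bind this string. All 4 were past 2-fold lower in cells with Zeb2, and whether Zeb2 acts on any of them was not tested. The windows are on the plus strand of GRCm38.p6, at chr4:137277385-137277488 for Wnt4 and chr10:121033754-121033959 for Wif1, read 5′ to 3′. Capitals mark letters of GGGCGG (the GC box), CACCTG or TATAAA on either strand.
Wnt4: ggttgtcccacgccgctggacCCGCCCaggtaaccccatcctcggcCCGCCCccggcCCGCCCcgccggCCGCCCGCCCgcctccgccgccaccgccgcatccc
Wif1: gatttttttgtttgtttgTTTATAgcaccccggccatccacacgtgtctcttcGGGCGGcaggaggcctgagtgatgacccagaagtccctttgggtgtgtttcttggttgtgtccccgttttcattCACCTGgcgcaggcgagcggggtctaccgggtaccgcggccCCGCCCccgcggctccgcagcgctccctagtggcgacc
CACCTG lay in the sequence shown for Wif1, 123 bases before the start that its 300-base window is built on. In the 300-base window of Wnt4 it lay 15 bases before the start used there. Both of these starts lie past the GENCODE starts given above. The Wnt4 match lay past the first exon's GENCODE start, outside the sequence shown. Of all 32851 promoter windows of this length, 20.2% held CACCTG on some strand, 35.7% held GGGCGG and 13.6% held TATAAA. The Wnt-effector motifs CTTTGAT and CTTTGAA, held by 3.73% and 5.14% of all windows, had no match in the 4 members' windows. The Wnt4 window was 84.3% G or C and the Wif1 window 63.0%, against a median of 52.7% over all windows. Sfrp2 and Frzb were also past 2-fold lower in cells with Zeb2, and their windows held no CACCTG. A match is a string of letters and not a measured site.

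The comparison of dissections asked which members were more often read where the caudal and median raphe cells were included. Of the 8 members, 4 were read in a higher share of All DR cells (Wnt4, Wif1, Dkk3 and Sfrp2) and 4 in a higher share of Principal DR cells (Sostdc1, Rspo3, Sfrp1 and Frzb). The intervals of the dissections did not overlap for Wnt4, Sostdc1, Wif1 and Rspo3, beside 16.1% of the 25522 genes detected in at least 3 cells. By mean level, 3 members (Wnt4, Sostdc1 and Wif1) were past 2-fold higher in All DR, beside 0.901% of those genes, and 0 were past 2-fold lower, beside 1.54%. The rule that chose the members used this contrast, so nothing is read from either count.

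By share of cells, Wnt4 differed most of the 8. Over the 11 All DR plates it was read in 29.6% of cells at the lowest, 45.5% at the median and 57.1% at the highest. On the Principal DR plates it was read in 31.2% (SER12), 29.4% (SER13), 11.6% (SER25), 10.7% (SER39) and 9.76% (SER40). Only the lowest All DR plate, SER56 with 27 cells, fell within the Principal DR range, and within Principal DR the plates SER12 and SER13 stood above the other 3. Over all cells the share was 46.5% (42.8 to 50.3%, 330 of 709 cells) against 22.8% (18.1 to 28.0%, 66 of 290), and the level 12.1 against 2.88 CPM, a log2 difference of 1.75. With only the All DR plates low in Xist (SER48 and SER55, chosen after their values were seen), the difference was 1.73. By level no plate overlapped: All DR plate means ran from 9.24 to 15.0 CPM and Principal DR means from 0.459 to 4.39 CPM.

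Sostdc1 went one way by share and the other by level. It was read in 14.3% of cells on the lowest All DR plate, 23.7% on the median plate and 30.1% on the highest, and on the Principal DR plates in 34.4%, 34.1%, 32.6%, 21.4% and 36.6% (SER12, SER13, SER25, SER39 and SER40). All Principal DR plates but SER39 were above every All DR plate. Yet the mean level was higher in All DR, 35.3 against 13.7 CPM, a log2 difference of 1.30. Positive cells held a median of 85.5 CPM in All DR and 34.7 CPM in Principal DR. A lower share of All DR cells thus had Sostdc1, at a higher median level. The levels of single cells overlapped, with quartiles of 33.7 and 190 CPM in All DR and 15.5 and 61.3 CPM in Principal DR.

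Rspo3, the agonist, was read in 17.3% (14.6 to 20.3%) of All DR and 28.3% (23.2 to 33.8%) of Principal DR cells, at 6.75 and 11.2 CPM, a log2 difference of -0.65 that did not pass 2-fold. The All DR plates ran from 0 through a median of 17.8% to 27.8%, and the Principal DR plates gave 33.3%, 20.0%, 30.2%, 39.3% and 24.4%. The 3 highest All DR plates lay within the Principal DR range and the other 8 below it. The 4 lowest All DR plates (SER67 at 0, SER56 at 3.70%, SER48 at 6.58% and SER55 at 7.69%) were also those with the highest shares of Zeb2-positive cells, 23.3 to 57.9% against 10.0 to 16.2% on the others. Whether the make-up of these plates set their Rspo3 share was not tested.

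Wif1 was read in 22 of 709 All DR cells (3.10%, 1.95 to 4.66%) on 9 of 11 plates and in 0 of 290 Principal DR cells, where the upper limit of the share is 1.26%. The log2 difference of a gene with no read on 1 side, here and below, depends on the 1 CPM added. That of Wif1 rests on few cells: without plate SER50, SER51 or SER52 it fell below 1, to as little as 0.82. Dkk3 was read in 75.6% (72.3 to 78.7%) and 71.7% (66.2 to 76.8%), with plates at 70.1 to 84.6% and 67.9 to 75.6%, so the ranges overlapped in part. The Principal DR plates SER13, SER25 and SER39 lay below every All DR plate. Sfrp2 was at 21.4% and 19.7% of cells and Frzb at 3.53% and 4.14%, with overlapping intervals and log2 differences of 0.23 and 0.24. Of the 12 Frzb-positive Principal DR cells, all were on SER12 and SER13, where Frzb was read in 3.23% and 10.6% of cells.

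**Figure D1:**
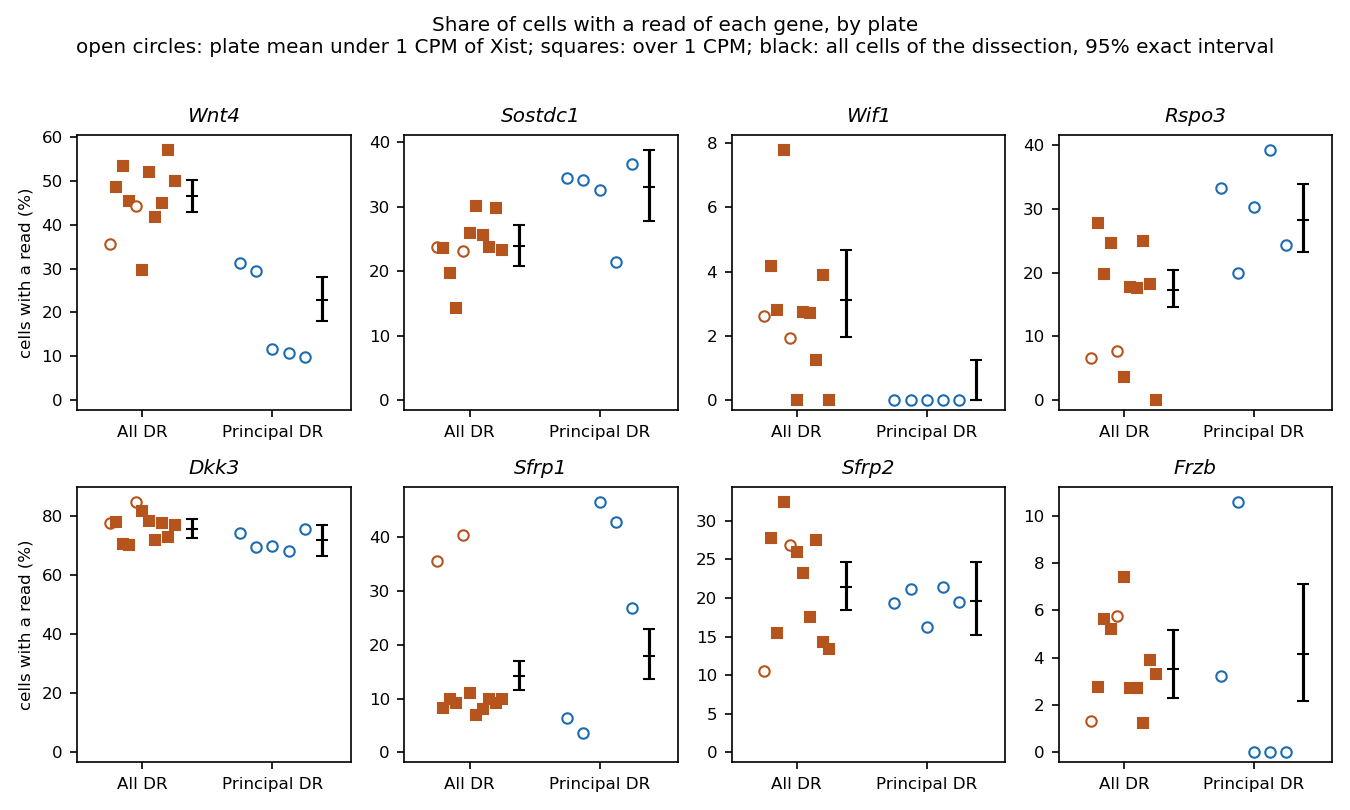
Share of cells (%) with at least 1 read of each gene on each of the 11 All DR and 5 Principal DR plates, with the share over all cells of the dissection and its 95% exact interval in black. Open circles are plates with a mean of under 1 CPM of Xist and filled squares the others. Wnt4 was at 29.6 to 57.1% on All DR plates and 9.76 to 31.2% on Principal DR plates, and Sfrp1 split the plates of both dissections.

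Sfrp1 differed more between plates of 1 dissection than between dissections. Over all cells it was read in 14.1% (11.6 to 16.9%) of All DR and 17.9% (13.7 to 22.8%) of Principal DR cells, at 4.31 and 6.42 CPM, a log2 difference of -0.48. In Principal DR it was read in 6.45% (SER12), 3.53% (SER13), 46.5% (SER25), 42.9% (SER39) and 26.8% (SER40) of cells, with means of 0.590, 0.499, 18.0, 24.0 and 7.81 CPM. In All DR it was read in 35.5% of cells on SER48 and 40.4% on SER55, with means of 15.8 and 23.0 CPM, and in 6.85 to 11.1% on the other 9 plates, with means of 0.300 to 2.08 CPM. No plate fell between 11.1% and 26.8%, so the 16 plates formed a high set of 5 and a low set of 11. Within All DR the plates low in Xist held Sfrp1 in 37.5% of cells (29.1 to 46.5%, 48 of 128) and the others in 8.95% (6.76 to 11.6%, 52 of 581). SER12 and SER13 were low in both Xist and Sfrp1. The sign of the dissection difference turned with the plates used: -1.80 on the log2 scale without SER48 and SER55, and 1.41 with only these 2 for All DR.

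The plate difference in Sfrp1 was larger in cells with Crhr2, a receptor for corticotropin-releasing hormone peptides. On the 5 high plates Sfrp1 was read in 83.3% (SER48, 20 of 24), 94.4% (SER55, 17 of 18), 76.2% (SER25, 16 of 21), 83.3% (SER39, 5 of 6) and 55.6% (SER40, 10 of 18) of Crhr2-positive cells. On the other plates the share was 3.45 to 16.7%, except on SER56, where it was 33.3% (2 of 6). Cells without Crhr2 had Sfrp1 in 4.35 to 31.8% on the high plates and 2.00 to 11.4% on the others. Markers of other cell types did not differ by their medians, which were 0 CPM for the summed astrocyte, oligodendrocyte and choroid plexus markers in cells with and without Sfrp1. Their means did: 14.6 against 4.73 CPM for 7 astrocyte markers, 124 against 36.0 CPM for 7 oligodendrocyte markers and 2.29 against 0.969 CPM for 7 choroid plexus markers, each with a few cells far above the rest (up to 1908, 16692 and 91.0 CPM in Sfrp1-positive cells). All markers of these 3 lists had a read in some cell. Their part in the Sfrp1 values was not tested.

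**Figure D2:**
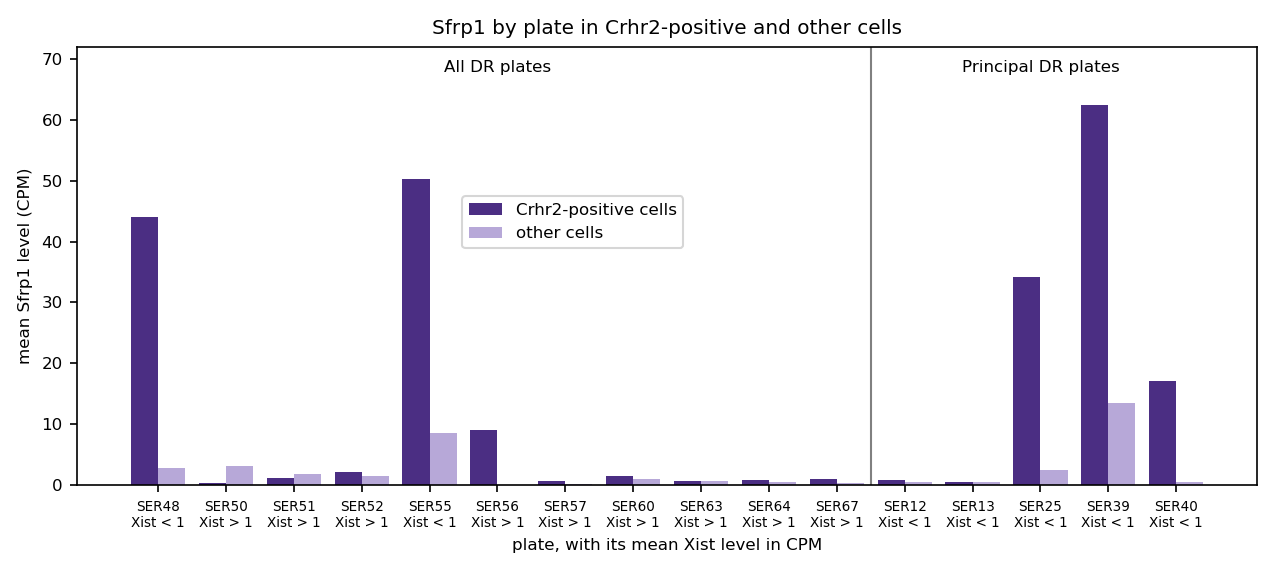
Mean Sfrp1 level (CPM) on each plate in Crhr2-positive cells (dark bars) and in the other cells (light bars), with All DR plates on the left, Principal DR plates on the right and the plate's mean Xist level marked as under or over 1 CPM. Crhr2-positive cells reach 44.0 CPM on SER48, 50.3 CPM on SER55, 34.3 CPM on SER25, 62.5 CPM on SER39 and 17.2 CPM on SER40, and stay at 9.11 CPM or less elsewhere.

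Within the All DR dissection the members were set against 5 kinds of cells. Cells with a read of Irx2, an Iroquois transcription factor, numbered 154. Rorb-high cells, at or above the 90th percentile of this nuclear receptor over all cells (129.6 CPM), numbered 86. Cells with Crhr2 numbered 289, with Zeb2 147, and with Gad1 or Gad2, the enzymes of GABA synthesis, 164. These sets overlap and each is compared with all other All DR cells, so the contrasts share cells. Counts of plates higher or lower, here and below, are by mean level unless a share is named. Of the Rorb-high cells, 67 (77.9%) were Crhr2-positive, while 5 Irx2-positive cells (3.25%) were Zeb2-positive.

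In Irx2-positive cells 4 members were past 2-fold higher (Wnt4, Sostdc1, Sfrp2 and Frzb), beside 0.564% of all genes detected, and Rspo3 was lower, beside 0.976%. The median log2 difference of the 8 members was 0.55 here. It was -1.36 in Zeb2-positive, -0.86 in Rorb-high, 0.51 in Crhr2-positive and -0.79 in Gad-positive cells. The rule that chose the members named these kinds of cells. Nothing is therefore read from these medians or from the counts of members, here and below. Sostdc1 was read in 43.5% (35.5 to 51.7%) of them and in 18.4% (15.2 to 21.9%) of the others, at 104 against 16.2 CPM, a log2 difference of 2.62 (1.29 to 4.82 over the 11 plates). Wnt4 was read in 66.2% against 41.1%, at 21.6 against 9.43 CPM, log2 1.12. This difference fell short of 2-fold with Irx2 called at 5 reads or at 10 CPM (0.70 at the smallest over all alternatives). It also fell short with 10 CPM added and on SER48 and SER55 alone. Sfrp2 was read in 38.3% against 16.8%, at 4.99 against 0.808 CPM, log2 1.73. By level these 3 were higher in Irx2-positive cells on all 11 plates. By share Sostdc1 and Sfrp2 were higher on all 11, and Wnt4 on 10 and lower on 1. Rspo3 moved the other way, with reads in 1.95% (3 cells) against 21.6%, at 0.582 against 8.46 CPM, log2 -2.58, lower on 9 plates and higher on 1. Frzb, at 7.14% against 2.52% and log2 1.23, was higher on 6 plates and lower on 5, and passed 2-fold neither without SER51 nor without SER67 (down to 0.93). Irx2-positive cells were themselves mixed. The 23 with a read of Nmbr, the neuromedin B receptor, had Wnt4 in 21.7% (7.46 to 43.7%), Sostdc1 in 13.0% (2.78 to 33.6%) and Dkk3 in 26.1% (10.2 to 48.4%). The 131 without Nmbr had them in 74.0% (65.7 to 81.3%), 48.9% (40.0 to 57.7%) and 71.8% (63.2 to 79.3%). Sfrp2 was read in 21.7% and 41.2%, with intervals that overlapped.

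In Zeb2-positive cells 6 members were past 2-fold lower, beside 2.9% of all genes, and 0 were higher, beside 1.66%. Among genes with a mean of at least 1 CPM these shares were 5.66% and 2.62%. Wnt4 was read in 7.48% (3.79 to 13.0%, 11 of 147) against 56.8% (52.6 to 60.9%), at 2.21 against 14.7 CPM, log2 -2.28. Sostdc1 was read in 8.16% against 27.9%, at 4.47 against 43.4 CPM, log2 -3.02, and Rspo3 in 2.04% against 21.4%, at 0.457 against 8.40 CPM, log2 -2.69. By level Wnt4 and Sostdc1 were lower on 11 of 11 plates and Rspo3 on 10. By share Wnt4 was lower on 11, Rspo3 on 10, and Sostdc1 on 9 and higher on 2. Wif1 and Frzb had no read in any of the 147 cells, where the upper limit of a share is 2.48%, against 3.91% and 4.45% of the others. Sfrp2, in 8.16% against 24.9%, had a log2 difference of -1.05 that fell short of 2-fold without SER48, SER60 or SER67 (-0.85 at the smallest). Wif1 fell short without SER52 (-0.99). Dkk3 and Sfrp1 did not pass 2-fold. Dkk3 was read in 89.8% (83.7 to 94.2%) of Zeb2-positive and 71.9% (68.0 to 75.6%) of other cells, with a higher share on 11 of 11 plates, at 64.6 and 65.3 CPM. Sfrp1 was read in 12.2% against 14.6%, log2 -0.38. Its level was lower on 9 plates and higher on 2, and its share lower on 6 and higher on 5. In 106 of the 147 cells (72.1%) none of the 7 members other than Dkk3 was read, against 27.4% of all All DR cells. Zeb2-positive cells with a read of Piezo2, a mechanosensitive channel, also numbered 106 but were not the same cells. They had Wnt4 in 1 cell (0.943%), Sfrp1 in 10 (9.43%), Sfrp2 in 8 (7.55%) and Sostdc1, Rspo3, Wif1 and Frzb in none. The 41 Zeb2-positive cells without Piezo2 had Wnt4 in 24.4% (12.4 to 40.3%) and Sostdc1 in 29.3% (16.1 to 45.5%). They had Sfrp1 in 19.5% and Sfrp2 in 9.76%.

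In Crhr2-positive cells of All DR, Wif1 and Sfrp1 were past 2-fold higher, beside 0.419% of all genes, and Frzb was lower, beside 0.858%. Wif1 was read in 6.23% (3.73 to 9.67%) against 0.952% (0.260 to 2.42%), at 2.27 against 0.149 CPM, log2 1.51, higher on 7 plates and lower on 2. Sfrp1, at log2 1.62, was higher on 8 plates, and at 0.12 without SER48 and SER55. Frzb was read in 2 of 289 cells (0.692%) against 5.48%, log2 -1.41. Wnt4 and Dkk3 were read in far more Crhr2-positive cells, 68.9% against 31.2% and 87.5% against 67.4%, but differed by 0.83 and 0.77 on the log2 scale and did not pass 2-fold. Crhr2-positive cells had a median of 974685 reads and the others 800566. With each cell thinned to 250000 reads, and Crhr2 called at full depth, the log2 differences of Wnt4 and Dkk3 were 0.74 and 0.78. Thinning leaves a mean CPM much as it was, so these values do not bear on the shares. Shares in Crhr2-positive and other cells were not compared at equal depth, and the part of depth in them was not tested. Npy2r, a neuropeptide Y receptor, split the Crhr2-positive cells: with it, Sostdc1 was read in 13.1% (7.69 to 20.4%) and Rspo3 in 29.5% (21.6 to 38.4%), and without it, in 31.7% (24.8 to 39.4%) and 15.0% (9.93 to 21.3%). Sostdc1 showed the same order in Principal DR, 16.2% (8.36 to 27.1%) with Npy2r and 42.9% (28.8 to 57.8%) without, whereas Rspo3 was at 27.9% and 32.7%. In Principal DR, Crhr2-positive cells had Wnt4 in 35.9% (27.2 to 45.3%) against 13.9% (9.10 to 19.9%), log2 1.68, and Sfrp1 in 31.6% against 8.67%, log2 1.99. Those 2 members were higher there, beside 0.462% of genes, on 4 and 5 of the 5 plates, and 0 were lower, beside 0.701%.

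In Rorb-high cells 4 members were past 2-fold lower (Sostdc1, Wif1, Rspo3 and Frzb), beside 0.862% of all genes, and Sfrp1 was higher, beside 0.572%. Rspo3 was read in 1 of 86 cells (1.16%) against 19.6%, at 0.0406 against 7.68 CPM, log2 -3.06. Sostdc1 was read in 19.8% against 24.4%, at 9.46 against 38.9 CPM, log2 -1.93. Its level was lower on 11 of 11 plates, and its share lower on 8 and higher on 2. Wif1 and Frzb had no read, but the upper limit of their share in 86 cells is 4.20%. That limit lies above the 3.53% and 4.01% of the others, so a lower share was not detectable with so few cells. Wif1 fell short of 2-fold without SER51 or SER52 (-0.91 at the smallest). Wnt4 was read in 73.3% (62.6 to 82.2%) against 42.9% (38.9 to 46.8%), log2 0.95. The level of Wnt4 was higher on 11 of 11 plates, and its share higher on 9 and lower on 1. It passed 2-fold without SER57 or SER63. The higher Sfrp1, log2 2.00, belonged to SER48 and SER55: it was higher on 5 plates and lower on 6, and without those 2 plates the difference was -0.50.

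In Gad-positive cells of All DR, Wnt4 and Wif1 were past 2-fold lower, beside 0.161% of all genes, and 0 members were higher, beside 0.729%. Wnt4 was read in 25.0% (18.6 to 32.3%) against 53.0% (48.7 to 57.3%), log2 -1.50, and lower on 11 of 11 plates. Wif1 had no read in 164 cells, where the upper limit of the share is 2.22%, against 4.04% of the others. Without SER55, Sostdc1 and Sfrp1 also passed 2-fold lower. In Principal DR, where 183 of 290 cells were Gad-positive, Sostdc1 was past 2-fold higher, beside 1.22% of genes, and Wnt4 and Sfrp1 lower, beside 0.776%. Sostdc1 was read in 44.8% (37.5 to 52.3%) of Gad-positive and 13.1% (7.34 to 21.0%) of other Principal DR cells, at 17.7 against 6.80 CPM, log2 1.26, higher on 5 of 5 plates. In All DR the shares were 25.0% and 23.5%, and the log2 difference was -0.81. The Gad-positive cells of All DR with a read of Trh, thyrotropin-releasing hormone, nonetheless had Sostdc1 in 62.1% (42.3 to 79.3%, 18 of 29), against 17.0% (11.1 to 24.5%) of those without. In Principal DR the shares with and without Trh were 52.6% (42.2 to 62.8%) and 36.0% (26.0 to 47.1%). Wnt4 was lower in Gad-positive Principal DR cells (15.3% against 35.5%, log2 -1.70), on 5 of 5 plates by level.

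**Figure D3:**
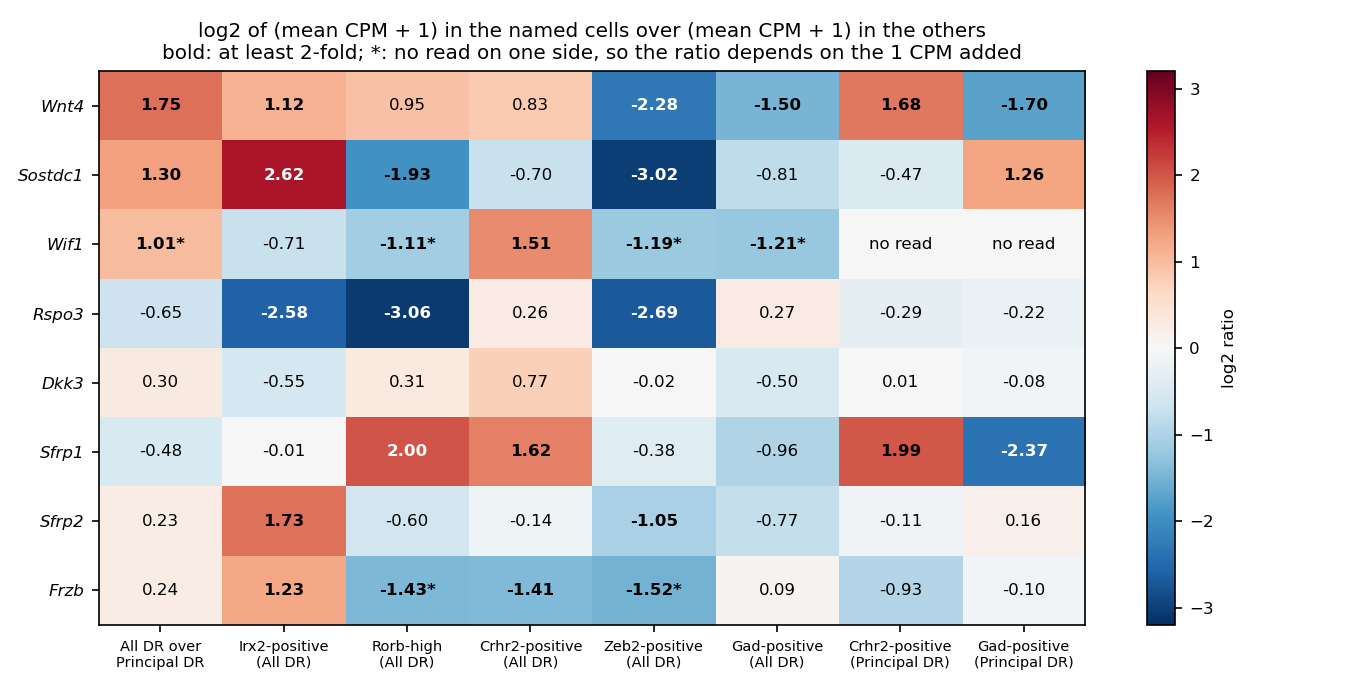
Log2 of (mean CPM + 1) in the named cells over (mean CPM + 1) in the other cells of the dissection for the 8 genes (rows), with the comparison of dissections in the leftmost column; red is higher, blue is lower, bold is past 2-fold and an asterisk marks no read on one side. Zeb2-positive cells are below 0 for all 8 genes, from -3.02 for Sostdc1 to -0.02 for Dkk3.

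**Figure D4:**
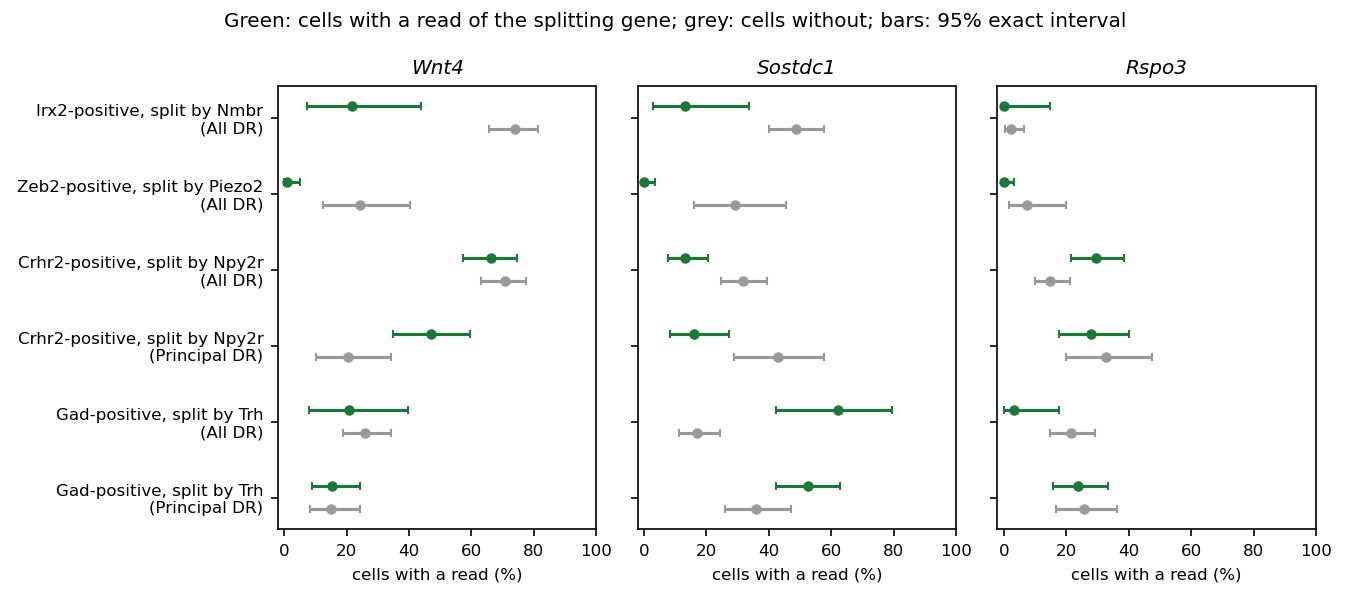
Share of cells (%) with Wnt4, Sostdc1 or Rspo3 in each set of cells, with (green) and without (grey) a read of a further marker, and 95% exact intervals. Sostdc1 lies at 62.1% and 52.6% in Gad-positive cells with Trh, and at 13.0% in Irx2-positive cells with Nmbr.

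The members were read together in different combinations in the dissections. A cell had a median of 2 members; 90 of 999 cells had none and 3 cells had 6, the most in any cell. In All DR, 117 of the 169 Sostdc1-positive cells (69.2%) also had Wnt4, and 35.5% of the Wnt4-positive cells had Sostdc1. In Principal DR the same shares were 13.5% and 19.7%. Sfrp1-positive cells had Wnt4 in 66.0% in All DR and 19.2% in Principal DR, against 46.5% and 22.8% of all cells there. They had Rspo3 in 14.0% in All DR and 55.8% in Principal DR, against 17.3% and 28.3% of all cells. The Principal DR plates highest in Sfrp1 (SER25, SER39 and SER40) had Wnt4 in 9.76 to 11.6% of cells. The part of plate in these shares was not tested. Rspo3 was read in 6.51% of Sostdc1-positive and 17.3% of all All DR cells, and in 16.7% of Sostdc1-positive and 28.3% of all Principal DR cells. Depth, library and plate are shared by the genes of a cell.

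The rare genes Wif1 and Frzb had no cell in common. Of the 22 Wif1-positive cells, with 2 to 160 reads each, 18 had Crhr2, 10 had Rspo3, 21 had Dkk3 and 0 had Zeb2, Gad1 or Gad2. By genes chosen after their values were seen, 12 had Crh, the corticotropin-releasing hormone itself, and these were 30.8% of the 39 Crh-positive All DR cells. All but 1 (95.5%) had Slc17a8, a vesicular glutamate transporter, against 73.1% of All DR cells, the dissection that held every Wif1-positive cell, and 65.0% of all cells. The 37 Frzb-positive cells, on 13 plates, had Sostdc1 in 26 (70.3%), in both dissections: 72.0% of the 25 in All DR and 66.7% of the 12 in Principal DR. They had Pth2r, a parathyroid hormone receptor, in 27 (73.0%, against 22.3% of all cells) and Slc17a8 in 8 (21.6%). Wif1 thus fell mostly in Crhr2 cells with Slc17a8, and Frzb mostly in Sostdc1 cells and mostly in cells without Slc17a8.

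**Figure D5:**
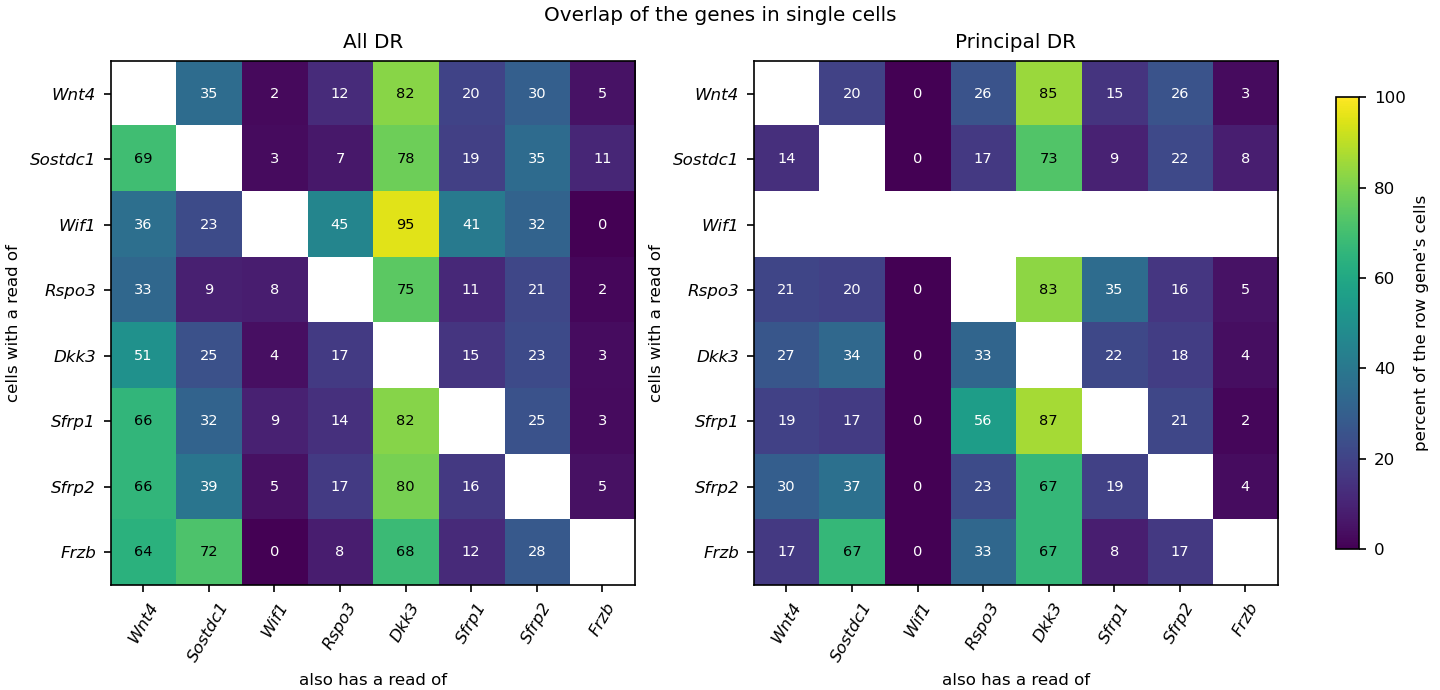
Percent of the cells with a read of the row gene that also had a read of the column gene, in All DR (left) and Principal DR (right). Wnt4 is in 69% of Sostdc1-positive cells on the left and 14% on the right, and the Wif1 row is empty on the right because no cell there had it.

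Over the 999 cells, 11518 genes were compared with each member by Pearson's correlation of ln(CPM+1), given without a test, since the cells share libraries and depth. The genes most like Wnt4 were Cmbl (0.47), P2rx2 (0.47), an ATP-gated channel, Ceacam10 (0.44), Amotl1 (0.43) and Tspo2 (0.42). Those most like Rspo3 were Pcdh7 (0.49), a protocadherin, Foxa1 (0.47), a forkhead transcription factor, Cbln4 (0.46), a synaptic organiser, Nectin3 (0.45) and Gm45768 (0.44). With plate means subtracted, these 10 correlations were 0.41 to 0.47. For Sostdc1, Wif1, Dkk3, Sfrp1, Sfrp2 and Frzb no gene reached 0.4.

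Other genes of the pathway were taken from lists made by role. Of 18 other Wnt ligands 12 were detected in at least 3 cells, led by Wnt5a, in 62.8% of cells, Wnt3 (20.1%) and Wnt5b (5.21%). Of 17 other modulators, secreted or, like Tpbg, in the membrane, 11 were detected, led by Dkkl1 (46.8%), Tpbg (29.5%) and Rspo1 (11.8%). For secretion, 7 of 7 genes were detected: the retromer subunits Vps29, Vps26a and Vps35 led, Porcn, which adds the lipid to Wnt proteins, was in 88.6% of cells and Wls, their carrier, in 105 cells. Of 26 receptors and co-receptors 23 were detected, led by Tspan12 (77.9%), Fzd3 (98.4%) and Fzd9 (31.9%). Of 31 intracellular components 29 were detected, led by Gsk3b and Ctnnb1, and of 11 feedback targets 9, led by Znrf3 (67.8%), Tcf7 (14.3%) and Nkd1 (10.4%).

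At most 5 genes of these lists are named for each contrast, those furthest from 0. Of the 85 detected genes of the 6 lists, 0 were past 2-fold higher in All DR, and 7 (8.24%, beside 1.54% of all genes) were lower, led by Lgr4 (-1.44), Lrp4 (-1.36), Wnt3 (-1.35), Wnt7b (-1.29) and Tle3 (-1.18). In Zeb2-positive cells 4 (4.71%, beside 2.9%) were lower, led by Wnt5a (-2.46), Lgr5 (-1.92), an Rspo receptor, and Tcf7 (-1.17), and 3 (3.53%, beside 1.66%) higher, led by Tspan12 (1.80) and Ndp (1.54), a Frizzled ligand that is no Wnt. In Irx2-positive cells Tpbg, a membrane Wnt inhibitor, was lower (-4.25), with Wnt5a (-1.10) and Ror2 (-1.03), and Lgr5 was higher (1.05), which makes 3.53% lower, beside 0.976%, and 1.18% higher, beside 0.564%. In Crhr2-positive cells Wnt5a was higher (1.16) and Ndp (-1.21) and Lgr5 (-1.08) lower, or 1.18% beside 0.419% and 2.35% beside 0.858%. In Rorb-high cells the receptors Ryk (1.44) and Ptk7 (1.30) and the effector Tcf7l2 (1.89) were higher, and Tpbg (-2.69) and Wls (-1.15) lower, or 3.53% beside 0.572% and 2.35% beside 0.862%. In Gad-positive cells Lrp4 (1.43), Ptk7 (1.37), Ndp (1.25), Dkkl1 (1.08) and Tcf7l2 (1.04) were higher (5.88%, beside 0.729%) and 0 genes lower (beside 0.161%). In Principal DR, Rspo1 (1.09) and Wnt7b (1.04) were higher (2.35%, beside 0.462%) and Tpbg (-2.36) lower (1.18%, beside 0.701%) in Crhr2-positive cells. In Gad-positive Principal DR cells 4 genes (4.71%, beside 1.22%) were higher, led by Dkkl1 (1.73), and 2 (2.35%, beside 0.776%) lower, led by Tpbg (-2.62). The lists were chosen with earlier results of these cells known, and nothing is read from these shares. Wnt5a and Wnt4, the 2 leading ligands, were both lower in Zeb2-positive cells, and in Irx2-positive cells Wnt4 was higher and Wnt5a lower.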

How the data were processed

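Single tdTomato-positive neurons were sorted and sequenced by Smart-seq2. According to the submitters' processing notes, the tools used were bcl2fastq 2.19.0.316, STAR 2.6.1a and HTSeq 0.11.2, with the builds mm10 and GRCm38. The authors deposited CPM per gene, a count divided by the cell's reads on genes, after removing genes of chromosome Y and cells under 300 genes or 50000 reads. Of these values, 100% were whole multiples of 1 read (tolerance 0.001 reads), which gave each cell's depth. Of 1536 labelled cells 999 are in the table, and 537 were not analysed here. Cells were grouped by their brain region label, and the plate came from the cell's label. Means, shares with Clopper-Pearson 95% intervals and log2 ratios with 1 CPM added were computed with Python 3.11.15, NumPy 2.4.6, SciPy 1.17.1 and pandas 2.3.3, and tested on simulated data.

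The members and gene lists were chosen with earlier results of these data known. Named were the 8 members, the markers of the cell sets, in each pathway list the 3 genes with the highest CPM per kb and up to 5 per contrast past 2-fold, the 5 genes most correlated with a member at 0.4 or above, and markers of another cell type where their mean sum differed over 2-fold with a member. Alternatives changed the added CPM, depth, plate weights, marker thresholds, cells and plates. Only 1 listed gene was not used here for want of a matching name.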

Additional observations from a re-analysis of the deposited data

Results flagged for a closer look

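In the groups of 4 to 10 plates, the Principal DR plates, 14 sets of values were compared with Dixon's 95% critical value, and 2 lay past it, where chance passes about 1 in 20. The share of cells with Sostdc1 on plate SER39 (21.4%, 28 cells) lay far below the other 4 plates, and the mean level of Frzb on plate SER13 (3.34 CPM) lay far above them. Plates are not separate samples, so both are given as values.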

How the results depend on the processing

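No paired analysis was possible because the labels pair no cells or plates across the dissections and the comparisons give no test. Each dissection was counted as 1 sample, reads carry no molecular identifiers, and dissection, Xist and, in part, Fos move together by plate, so their parts cannot be told apart. Shares of low genes depend on depth: thinned to 250000 reads, Wnt4 was read in 42.7% of All DR and 17.6% of Principal DR cells and Sfrp2 in 14.1% and 12.8%, and 9 cells were too shallow to thin.

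With 10 CPM added in place of 1, the members past 2-fold numbered 0 higher in All DR (3 before), 1 higher and 0 lower in Irx2-positive cells (4 and 1), 0 higher and 1 lower in Rorb-high cells (1 and 4), 0 higher and 0 lower in Crhr2-positive cells (2 and 1), 2 lower in Zeb2-positive cells (6) and 0 lower in Gad-positive cells (2). In Principal DR they numbered 0 higher in Crhr2-positive cells (2), and 0 higher and 1 lower in Gad-positive cells (1 and 2). With 0.1 CPM added, 2 members were lower in Irx2-positive cells (1), 2 higher in Rorb-high cells (1), 4 lower in Gad-positive cells (2) and 1 lower in Crhr2-positive Principal DR cells (0). Thinning also gave 1 for the last. Of markers at 5 reads, Irx2 left 2 higher members (4). With both dissections together, 2 were higher in Rorb-high cells (1) and 3 lower in Zeb2-positive cells (6). With plates weighted equally, 1 member (Sfrp1) was lower in All DR (0).

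The next 2 choices, of plates, were made after seeing the data. Without SER48 and SER55, 1 member was lower in All DR (0), 2 lower in Irx2-positive cells (1), 0 higher in Rorb-high cells (1) and 1 higher in Crhr2-positive cells (2), and the Rorb-high difference of Sfrp1 reversed from 2.00 to -0.50. With only these All DR plates, 1 was lower in All DR (Rspo3), 0 lower in Irx2-positive cells, 3 higher and 2 lower in Rorb-high cells and 0 lower in Crhr2-positive cells. The causes were not tested.

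Leaving out 1 plate at a time gave 2 to 4 higher in All DR, 3 to 4 higher in Irx2-positive cells, 1 to 2 higher and 3 to 4 lower in Rorb-high cells, 5 to 6 lower in Zeb2-positive cells, 2 to 4 lower in Gad-positive cells, 0 to 1 lower in Crhr2-positive Principal DR cells (1, Frzb, without SER12 or SER39) and 4 to 5 members read in more All DR cells. Of 632 log2 differences under the other alternatives, 594 moved by less than their spread over plates. The shares of all genes given beside the members depend on which genes are counted. Among the 12834 genes with a mean of at least 1 CPM every such share past 2-fold was larger. It was 1.75% higher in All DR (0.901% before), 0.849% higher and 1.89% lower in Irx2-positive cells (0.564% and 0.976%) and 0.296% lower in Gad-positive cells (0.161%).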

Other observations

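In Rspo3-positive cells the summed level of 6 ependymal markers averaged 10.4 CPM, against 4.19 CPM in the other cells, with medians of 1.68 and 0 CPM. Of those markers Tmem212 was at 0 in every cell. In Frzb-positive cells the 8 vascular leptomeningeal markers averaged 1.30 against 0.485 CPM, with medians of 0, and Lum and Igf2 were at 0 in every cell. In Sfrp2-positive cells the 7 microglia markers averaged 1.18 against 0.373 CPM, with medians of 0. The part of these cells in the members' values was not tested.

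In the All DR cells alone, Wif1 and Crh had a correlation of 0.53 over 709 cells, and Gm45768 and Rspo3 one of 0.33.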
